A study of Homo sapiens with 3 samples.

Results

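The genes for heterogeneous nuclear ribonucleoproteins (hnRNPs, symbols beginning with HNRNP) and for RNA-binding motif proteins (symbols beginning with RBM) were examined among the RNAs recovered with CTCF from U2OS cells, a human osteosarcoma line. They were taken as every gene annotated as protein-coding in the deposited count table whose Ensembl identifier is paired with such a symbol. This gave 60 genes, 23 HNRNP and 37 RBM, of 12220 listed protein-coding genes and 17201 listed genes in all. The lowest listed count was 6, so genes with fewer counts could not enter. Among listed genes the choice rests on the symbol and not on the counts, though it was made with earlier results of these data known. By the letters alone it also takes in 2 read-through genes, RBM14-RBM4 and HNRNPUL2-BSCL2, which join neighbouring genes, and RBM33-DT, a divergent transcript whose present symbol is not that of a protein. Of the 72 protein-coding genes annotated with such symbols outside chromosome Y, each paired with 1 identifier, 58 were listed, or 80.6% (95% Clopper-Pearson interval 69.5 to 88.9%). The share over all annotated protein-coding genes was 60.3%.

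All samples were U2OS cultures given 400 µM 4-thiouridine, a photoreactive nucleoside that is built into new RNA, and irradiated at 365 nm with 400 mJ/cm2. Protein bound to RNA was precipitated from nuclear lysate with an anti-CTCF antibody, the method known as PAR-CLIP. The labels give 3 samples, namely 2 biological replicates, each with its own antibody lot, and the merge of their sequencing data. The merged table was the one analysed. It holds 1 whole-number count per gene, from 6 to 6801, and the counts sum to 1322047. A control precipitation, an input library, each replicate apart and RNA abundance were not analysed here, so a count is an amount recovered with CTCF and not an enrichment. With 1 merged sample there was no test between groups, and the Poisson intervals cover counting error at most. The Clopper-Pearson intervals treat genes as independent draws, which they are not, and measure no spread between samples. Cultures were measured whole, so fewer cells with an RNA and less of it per cell cannot be told apart. Mesenchymal and bone markers were represented by 8 of 12 genes (median 212 counts), COL1A2, SP7, SPP1 and TWIST1 not being among them. Of all annotated protein-coding genes 60.3% were listed, so being listed says little. The 8 ran from ALPL at 8 counts to FN1 at 1277, and 6 had 100 or more. Among those 6, RUNX2 (164) and CDH11 (121) lay over 219 and 178 kb. Of 6 blood markers 0 were listed, and of 4 epithelial markers 2 (highest CDH1 at 13). Of 4 neural markers 3 were listed, the neuronal genes RBFOX3 (93, over 393 kb), SNAP25 (38) and SYP (11). The one not listed was GFAP, a glial marker.

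hnRNPs coat newly made transcripts in the nucleus and steer their splicing, export and stability. RBM proteins share the RNA recognition motif that most hnRNPs also carry, and act in splicing, nuclear RNA decay, RNA methylation and ribosome assembly. Many of these genes regulate their own transcripts through retained introns or poison exons, and several hnRNP mRNAs have left numerous processed pseudogenes in the human genome.

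The 60 genes stood high in the table, the HNRNP genes more so than the RBM genes. The median count was 152.5 over the 60, 246 over the HNRNP genes and 93 over the RBM genes, against 43 over all listed protein-coding genes. Counts ran from 7 to 1029, with quartiles of 43.25 and 298.75. In all, 33 of 60 (55%, 41.6 to 67.9%) had 100 counts or more, a level reached by 26.1% of listed protein-coding genes. They comprised 15 of 23 HNRNP genes and 18 of 37 RBM genes. The top 10% of protein-coding genes, at 222 counts and above, held 22 of 60, which is 36.7% against 10.1%. Among these were 13 of 23 HNRNP genes and 9 of 37 RBM genes. The 60 genes are 0.491% of listed protein-coding genes and held 1.10% of their summed count, and 30.5% of their own 12570 counts lay in 5 genes.

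Reads in overlapping genes may be counted in each, and 27 of 60 (45%, 32.1 to 58.4%) overlapped another listed gene by at least 1 base, against 34.7% of protein-coding genes. Among genes that overlap no other, the HNRNP genes had a median of 217 (n = 13) and the RBM genes 38 (n = 20), while all such protein-coding genes also had 38. The median over all 33 was 64. By this median the RBM genes without overlap were level with the background. Of them 7 of 20 (35%, 15.4 to 59.2%) had 100 counts or more, against 23.6% of such protein-coding genes. This difference was not tested, since genes are not independent replicates. The upper quartile of the RBM genes without overlap was 160, against 94 over such protein-coding genes.

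**Figure D1:**
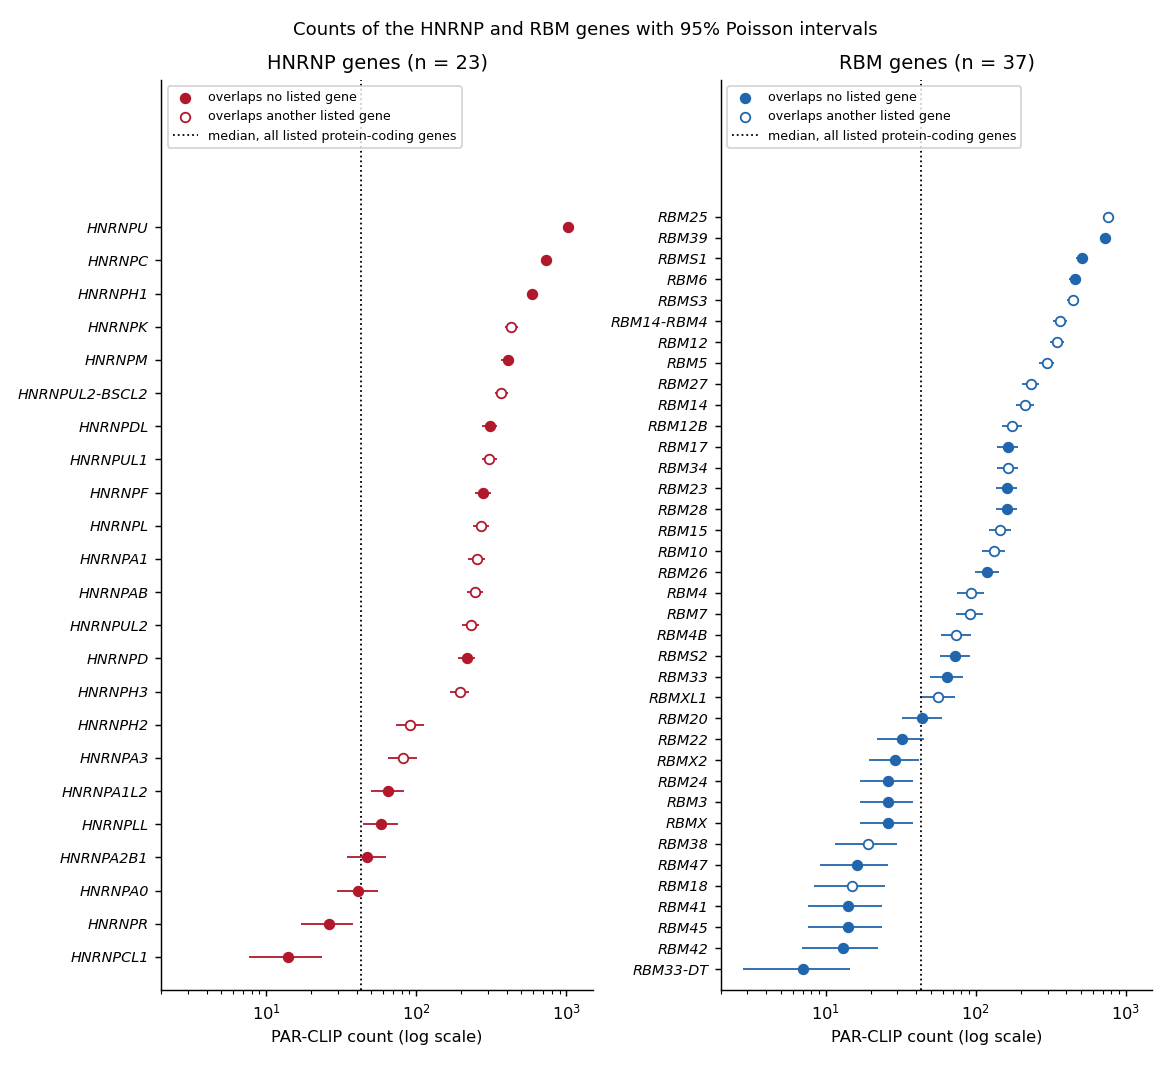
Count of each gene (log axis) with its 95% Poisson interval, HNRNP genes on the left and RBM genes on the right, with open points for genes that overlap another listed gene. Of the HNRNP genes 20 of 23 lie above the dotted median of 43, and of the RBM genes 25 of 37.

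HNRNP genes also had shorter deposited intervals than most, though a deposited interval need not span a whole gene. Their median interval was 11.1 kb and that of the RBM genes 27.9 kb, against 30.1 kb over listed protein-coding genes. Per kb of interval the medians were 15.6 counts for HNRNP genes and 4.05 for RBM genes, against 1.54. Among genes that overlap no other they were 12.5 for HNRNP genes and 2.19 for RBM genes, against 1.45. Per kb, 21 of 23 HNRNP genes and 13 of 37 RBM genes lay in the top 10% of protein-coding genes. Each gene was also set against the protein-coding genes of its own length group, 1 of 50 groups of equal size. The count exceeded the group's median for 49 of 60 genes (81.7%, 69.6 to 90.5%), against 49.4% of all protein-coding genes. This held for 22 of 23 HNRNP genes. The exception was HNRNPLL, for an hnRNP L relative that controls splicing in lymphocytes, whose 58 counts equalled its group's median of 58. Below their group's median lay 10 of 37 RBM genes.

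Across genes, which are not independent replicates, count rose with interval length. Spearman's rho was 0.63 over the 23 HNRNP genes, 0.33 over the 37 RBM genes and 0.29 over the 60, against 0.43 over the 12220 protein-coding genes.

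**Figure D2:**
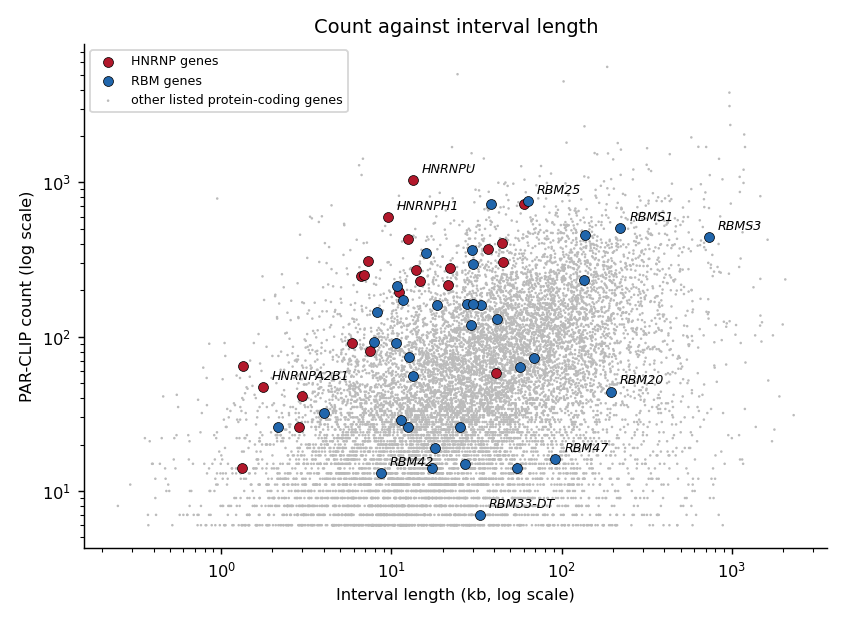
Count against interval length (both axes log), with HNRNP genes in red, RBM genes in blue and other listed protein-coding genes in grey. HNRNPU (1029 counts over 13.4 kb) and HNRNPH1 (593 over 9.53 kb) stand above genes of their length, while RBM20 (44 over 195 kb) and RBM47 (16 over 91.5 kb) stand below.

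HNRNPU headed the list. The gene, for the nuclear matrix protein also called SAF-A, stood at 1029 counts, with a Poisson interval of 967 to 1094, at 245014468 to 245027844 of chromosome 1 (hg19, as for all positions from the table). It ranked 49th of the protein-coding genes by count, was first of its length group, whose median was 25, and overlapped no listed gene. At 76.9 counts per kb it was also the highest of the 60 per length. Its relatives HNRNPUL1 and HNRNPUL2, linked to the response to DNA breaks, had 307 and 230 counts, or 6.81 and 15.6 per kb. The HNRNPUL2 interval lies wholly within that of the read-through gene HNRNPUL2-BSCL2 (369 counts), so its reads may be counted in both. HNRNPUL1 shares 13.3% of its interval with TGFB1, a growth factor gene with 101 counts.

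Of the C-type genes, HNRNPC, whose protein binds uridine-rich tracts as a tetramer, had 726 counts (674 to 781) over 60.4 kb of chromosome 14 (21677295 to 21737653). HNRNPCL1, a short copy-like gene, had 14 (7.65 to 23.5) over 1.32 kb, close to its group's median of 13.

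Among the F/H proteins, which bind runs of guanines, HNRNPH1 had 593 counts (546 to 643) on chromosome 5 (179041179 to 179050711). HNRNPF followed at 278, HNRNPH3 at 195 and HNRNPH2 at 91. Per kb, HNRNPH1 had 62.2 (57.3 to 67.4), above HNRNPH3 at 17.6, HNRNPH2 at 15.6 and HNRNPF at 12.5. The intervals of the 3 lower genes do not reach that of HNRNPH1. HNRNPH2 and HNRNPH3 are not separated, at 12.6 to 19.1 and 15.2 to 20.2 per kb. A further read-through gene, RPL36A-HNRNPH2 (93 counts), covers 68.6% of the HNRNPH2 interval.

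The A/B and D proteins, the core of the hnRNP particle and its relatives, had 8 listed genes with a median of 149 counts. HNRNPDL led with 309 counts (276 to 345), and HNRNPA1, HNRNPAB and HNRNPD had 252, 246 and 217. HNRNPA1 encodes an abundant splicing repressor. Next came HNRNPA3 with 81, HNRNPA1L2, a gene resembling a copy of HNRNPA1, with 65, HNRNPA2B1 with 47 and HNRNPA0 with 41. Their order changed per kb, where HNRNPA1L2 (48.3), HNRNPDL (42.3), HNRNPAB (37.0) and HNRNPA1 (36.6) came first and HNRNPD had 10.1. The genes that came first are not separated, with Poisson intervals from 37.2 to 61.5 for HNRNPA1L2 and from 32.2 to 41.4 for HNRNPA1. How reads that match both HNRNPA1L2 and HNRNPA1 were placed is not known here. HNRNPA2B1, whose protein sorts small RNAs into vesicles, was listed over 1.75 kb of chromosome 7 (26229547 to 26231298). Its 26.8 counts per kb (19.7 to 35.7) put it at the 98.5th percentile per length although its count was near the protein-coding median. Both values rest on the deposited interval, which need not span the whole gene. The HNRNPA1 interval lies wholly inside that of an unnamed sense-overlapping gene with 301 counts.

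Of the remaining hnRNPs, HNRNPK, for a protein with KH domains that binds cytosine-rich RNA, had 430 counts (390 to 473) on chromosome 9 (86582998 to 86595519). HNRNPK-AS1, annotated as antisense, lies wholly inside it with 41 counts, 9.53% of the HNRNPK count over 28.3% of its interval. HNRNPM, a splicing regulator, had 406 counts and overlapped no listed gene. HNRNPL, which binds CA repeats, had 269. HNRNPR, a relative of SYNCRIP, had 26 (17.0 to 38.1) over 2.86 kb, against 417 for SYNCRIP over 34.7 kb. Per kb they were 9.09 (5.94 to 13.3) and 12.0 (10.9 to 13.2), and these intervals overlap. The counts and lengths of both genes rest on their deposited intervals, which need not span the whole genes.

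HNRNPK hosts the precursor of miR-7, a small RNA that represses many mRNAs. Of 3 miRNA genes placed inside HNRNPK, RBMS1 and RBM47 by RefSeq, 0 were listed. The sources used here do not say whether miRNA precursors of this kind were counted at all. The mature sequences of the HNRNPK precursor are shown because they lie within the most counted of these hosts per kb, with bases 2 to 8, the seed, in capitals (RefSeq, GRCh38.p14, chromosome 9, minus strand).
hsa-miR-7-5p: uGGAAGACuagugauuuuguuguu
hsa-miR-7-1-3p: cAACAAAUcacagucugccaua

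Of the RBM genes, those for splicing factors were the most numerous and the most spread, with 17 genes from 13 to 760 counts and a median of 74. RBM25, which acts with the U1 snRNP at splice sites, had 760 counts (707 to 816) on chromosome 14 (73525144 to 73588122). RBM39, related to the splicing factor U2AF and the target of aryl sulfonamide drugs, had 723 (671 to 778) on chromosome 20 (34291531 to 34330158). Both lay above 99% of protein-coding genes, and their Poisson intervals overlap. Per kb RBM39 was higher, with 18.7 (17.4 to 20.1), against 12.1 (11.2 to 13.0) for RBM25.

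The related regulators RBM6, RBM5 and RBM10 had 457, 296 and 131 counts. Over its 137 kb RBM6 had 3.33 counts per kb (3.03 to 3.65), and RBM10 had 3.12 (2.61 to 3.71), so these are not separated. RBM5 had 9.83 (8.74 to 11.0). RBM17 (SPF45), which recognises 3′ splice sites, had 163 counts and RBM23, related to RBM39, had 160. RBM22, which contacts the active site of the spliceosome, had 32 (21.9 to 45.2) over 4.04 kb.

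Adaptors of nuclear RNA decay and methylation had between 91 and 232 counts. RBM27 and RBM26, of the pathway that brings polyadenylated nuclear RNA to the exosome, had 232 and 119 counts. RBM7, of the nuclear exosome targeting complex, had 91, but 93.8% of its interval is shared with an unnamed protein-coding gene of 111 counts. RBM15, which recruits the m6A methyltransferase, had 145 (122 to 171). Its relative RBM15B was not listed. RBM28 and RBM34, nucleolar proteins of ribosome assembly, had 160 and 163, and 98.5% of the RBM34 interval is shared with ARID4B (243 counts). RBM3, a cold-inducible protein, had 26 over 2.14 kb, 12.1 per kb (7.93 to 17.8). Its cold-inducible relative CIRBP had 91 counts, 6.60 per kb (5.31 to 8.10).

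The RBMS genes, for proteins that bind single-stranded DNA and RNA, had high counts over very long intervals. RBMS1 had 508 counts (465 to 554) over 221 kb of chromosome 2 and RBMS3 443 (403 to 486) over 729 kb of chromosome 3, while RBMS2 had 73 over 69.0 kb. Per kb they had 2.30, 0.607 and 1.06, the first above and the others below the protein-coding median of 1.54. RBMS3 contains the antisense genes RBMS3-AS2 in full, with 14 counts, and RBMS3-AS3 in part, with 37.

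RBM12 had 348 counts (312 to 387) on chromosome 20 (34236847 to 34252838), but its interval lies within that of NFS1 (523 counts) and 99.8% of it within CPNE1 (552), so its own share cannot be read from the table. RBM12B, on chromosome 8, had 174. On chromosome 11, RBM14, a coactivator found in paraspeckles, had 213 counts and RBM4, a splicing regulator, 93. The read-through gene RBM14-RBM4, which covers nearly all of RBM14 and all of RBM4, had 364. The paralog RBM4B, 18.5 kb away from RBM4, had 74 counts. Per kb RBM4 was higher, with 11.8 (9.56 to 14.5), against 5.80 (4.56 to 7.29) for RBM4B. RBMXL1, an autosomal copy of RBMX, had 56 counts, with 66.8% of its interval shared with KYAT3 (111).

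The 10 genes under the median of their length group were all RBM genes. RBM20, which splices titin in heart muscle, had 44 counts against a group median of 136.5, and RBM47, of epithelial cells, had 16 against 92.5. RBM38, a target of p53, had 19 against 37, and RBM45, known from neural tissue, 14 against 28. Other factors linked to splicing were also there. RBM42 had 13 counts against 24, RBM41, of the minor spliceosome, 14 against 69, and RBMX (hnRNP G) 26 against 37. RBM18 had 15 against 42 and RBM33 64 against 69. The lowest of all 60 was RBM33-DT with 7 counts (2.81 to 14.4) against 58, whose interval ends 50 bases before that of RBM33 begins. RBM24, a muscle splicing factor, had 26 counts against a group median of 25, and RBMX2, a factor of pre-mRNA retention and splicing, had 29 against 25. The RBMS2 count of 73 was likewise close to its group's 72.5.

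**Figure D3:**
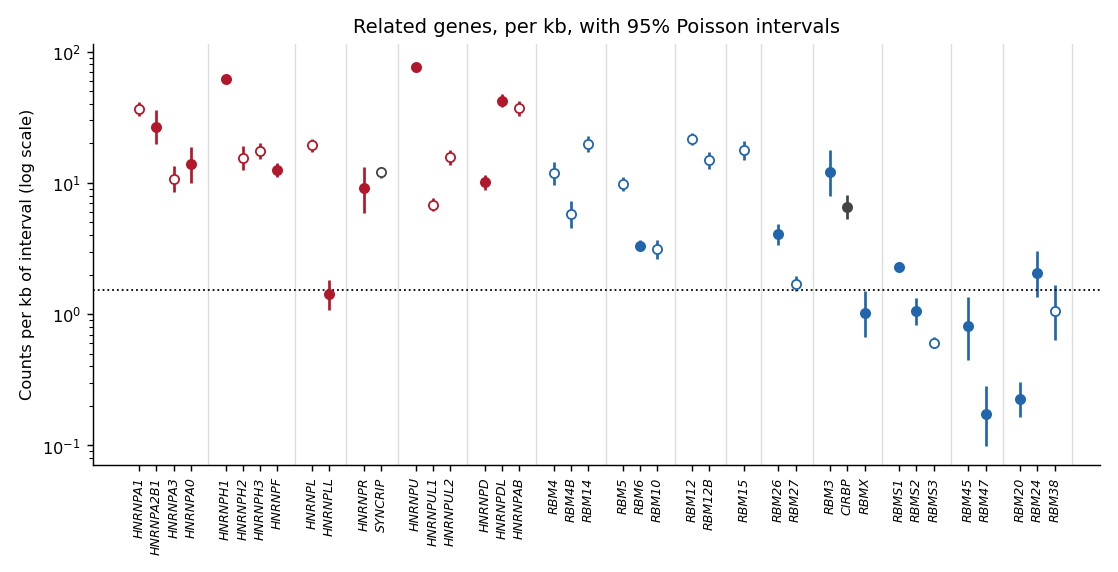
Counts per kb of interval (log axis), with 95% Poisson intervals, for genes side by side in groups set by hand, not all of them close relatives. Colours are red for HNRNP, blue for RBM and dark grey for SYNCRIP and CIRBP. Open points overlap another listed gene and the dotted line is the protein-coding median of 1.54. HNRNPU and HNRNPH1 stand above their relatives and HNRNPLL below HNRNPL.

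Of the 14 annotated genes not listed as protein-coding, HNRNPA1L3 and HNRNPCL4 were listed as pseudogenes. The other 12 were HNRNPCL2, HNRNPCL3, RBM8A, RBM11, RBM15B, RBM19, RBM43, RBM44, RBM46, RBM48, RBMXL2 and RBMXL3. They had fewer than 6 counts, were not counted, or stood under one of the 681 identifiers that carry no name here, and their levels are unknown.

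Many processed pseudogenes of these genes, most of them copies of hnRNP genes, were listed as well. The table held 49 pseudogenes of these families with 1597 counts in all, and 46 of them belong by symbol to 16 of the listed genes. Their median count was 13, close to the 14 of all 2056 listed pseudogenes. Per kb it was 16.3 against 10.7, over median intervals of 0.956 and 1.26 kb. Of the 49, 4 (8.16%) had 100 counts or more, against 4.33% of all listed pseudogenes. The 4 include HNRNPA1L3, which is annotated as protein-coding outside this table. With so few genes the difference was not tested. Of the 49, 19 lie wholly inside another listed gene, so reads of that gene may be counted in them. Processed pseudogenes resemble the spliced mRNA of the parent gene. The sources used here do not say how reads that match several places were treated, so the division between a parent gene and its copies is uncertain.

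The highest was HNRNPCP2, a copy of HNRNPC, with 320 counts (286 to 357) over 0.88 kb of chromosome 2 (190788062 to 190788942). This is 364 counts per kb, against 12.0 for HNRNPC itself. The copy lies inside C2orf88, whose interval of 200.0 kb had 350 counts, so 91.4% of that gene's count could lie in 0.440% of its interval. HNRNPCP3, with 39 counts, showed the same inside ANKRD34C-AS1 (42 counts), 92.9% of the count over 0.949% of the interval. Together the 6 listed copies of HNRNPC had 429 counts, against 726 at the parent.

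HNRNPA1 had the most copies, 20 of them, each between 6 and 42 counts. They summed to 328 counts, against 252 at HNRNPA1, so the intervals of copies held 56.6% of the 2 together. Several of these copies lie inside other listed genes, such as HNRNPA1P35 in HYCC2 and HNRNPA1P50 in EEA1, whose reads may be included. HNRNPA1L3, listed as a pseudogene, had 132 counts over 1.38 kb. The 3 copies of HNRNPK summed to 252 against 430 at the parent, with 182 (157 to 210) in HNRNPKP4. HNRNPRP1 had 117 counts (96.8 to 140) over 1.69 kb, above the 26 of HNRNPR. RBM39P1 had 80 against 723 for RBM39. HNRNPU and HNRNPH1, the highest genes per kb, had 1 listed copy each, with 13 and 10 counts. Copies of them thus held 1.25% and 1.66% of the pair.

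**Figure D4:**
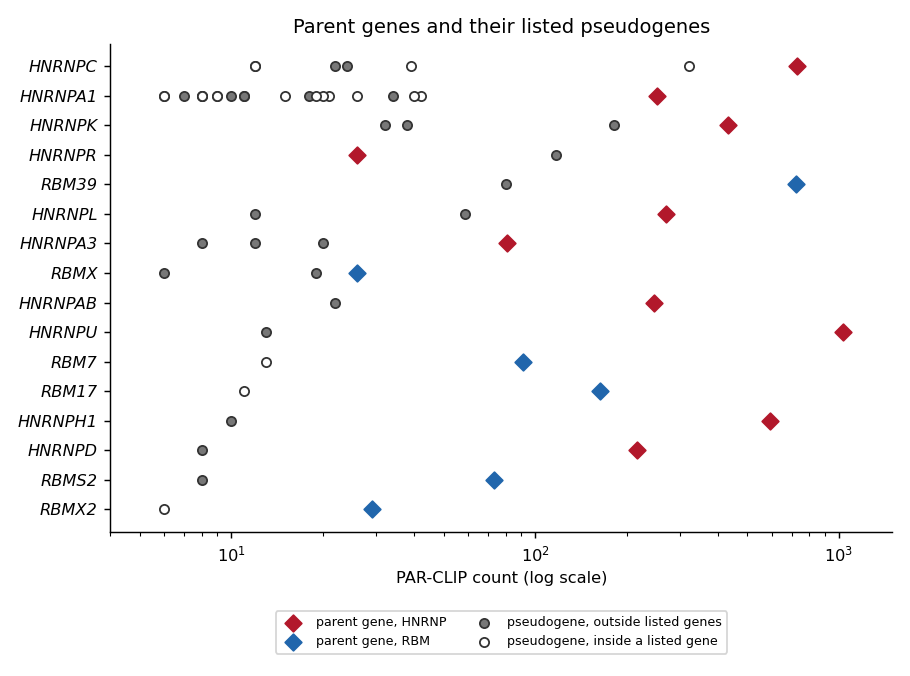
Counts (log axis) of 16 parent genes, as diamonds in red for HNRNP and blue for RBM, and of their listed pseudogenes, as circles that are open where the copy lies inside another listed gene. HNRNPCP2 at 320 is the highest of the copies, and HNRNPRP1 at 117 lies above HNRNPR at 26.

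Other proteins of hnRNP complexes and related RNA-binding proteins carry other symbols. Of 30 such genes 27 were listed, against 60.3% of all annotated protein-coding genes. The 27 had a median of 213 counts and 6.32 per kb. Of these, 19 had 100 counts or more, against 26.1% of listed protein-coding genes. MATR3, a nuclear matrix protein, had 744, PCBP2 (hnRNP E2) 473 and PTBP1 (hnRNP I) 77. MBNL1, a splicing regulator, was lowest with 33. Of the HNRNP and RBM genes 45% overlapped another listed gene, against 3 of these 27 (11.1%) and 34.7% of listed protein-coding genes. The nearest families of other RNA-binding proteins were also read. The 10 SRSF splicing-factor genes had a median of 274.5 counts and 25.1 per kb. The 47 DDX and DHX helicase genes had 78 and 3.20. HNRNP genes, at 246 and 15.6, lay nearer to the SRSF genes, and RBM genes, at 93 and 4.05, nearer to the helicases. None of these differences was tested, since genes are not replicates.

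**Figure D5:**
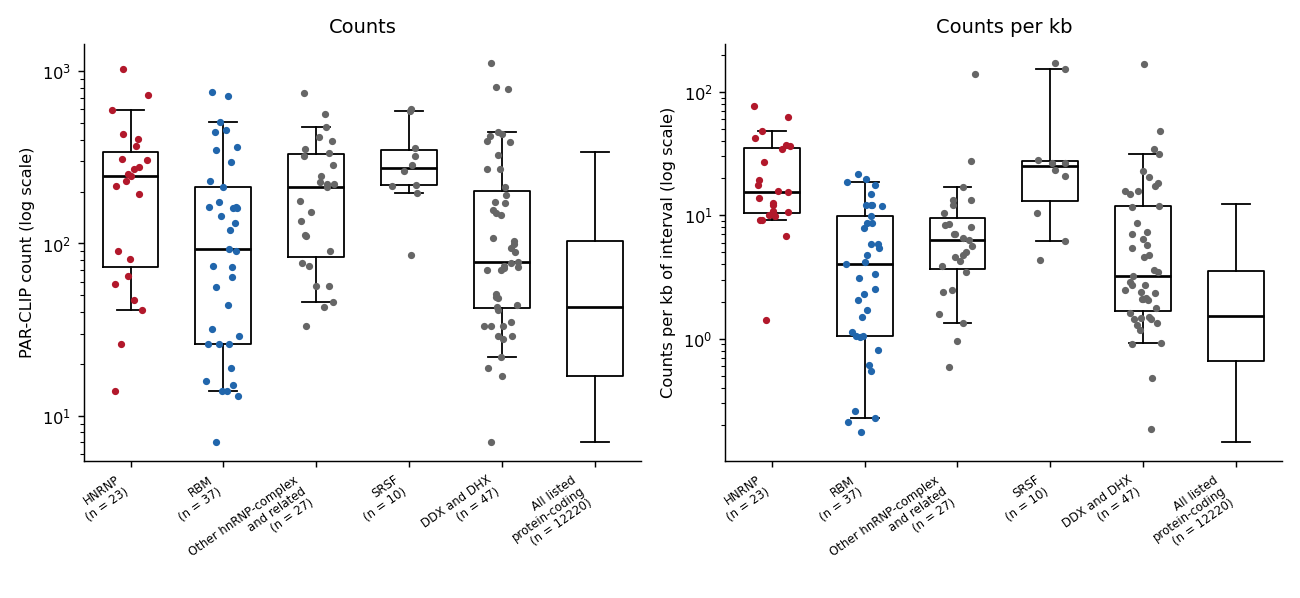
Counts (left) and counts per kb (right) on log axes for the HNRNP and RBM genes, related families and all listed protein-coding genes. Boxes give the quartiles and median, whiskers the 5th and 95th percentiles, and points the single genes of the smaller sets. HNRNP genes have medians of 246 and 15.6 and all protein-coding genes 43 and 1.54.

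By position, chromosome 11 held the most of the 60 genes, 7 (11.7%), against 5.52% of listed protein-coding genes. Those 7 include the read-through genes RBM14-RBM4 and HNRNPUL2-BSCL2. On chromosome X lie 6 of the 60 genes (10.0%), against 3.51% of listed protein-coding genes. They are RBM10 with 131 counts, HNRNPH2 with 91, RBMX2 with 29, RBMX and RBM3 with 26 each and RBM41 with 14. Their median was 27.5, against 30 over the 429 listed protein-coding genes of that chromosome. Their median interval was shorter, 18.4 kb against 25.7 kb. Per kb the medians were 2.84 and 1.21. Pairs of neighbours among the 60 that do not overlap were, besides RBM4 with RBM4B and RBM33-DT with RBM33, RBM6 and RBM5, 11.7 kb apart on chromosome 3, RBM12 and RBM39, 38.7 kb apart on chromosome 20, and HNRNPD and HNRNPDL, 48.6 kb apart on chromosome 4.

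Promoter sequences were read to see what else the genes share, since genes in the same place in the table may also share starts or motifs. RefSeq windows (GRCh38.p14, 250 bases before to 50 after a start) were at hand for 55 of the 60 and for 15843 protein-coding genes in all. The 55 were all listed genes, while the 15843 were not limited to the 12220 listed protein-coding genes. The shares below are therefore over unlike sets. In these windows 10 short motifs were searched on both strands. CCAAT was in windows of 36 of 55 genes (65.5%), against 42.1% of all. GGGCGG was in 63.6% against 64.3%, TATAAA in 12.7% against 12.4% and GCATGCG in 7.27% against 6.07%. TCTCGCG, part of a palindrome found in some housekeeping promoters, was in 7 of 55 (12.7%, against 5.96%). AGGGGGC, part of the DNA motif of CTCF, was in 14 of 55 (25.5%, against 21.8%). GATTGGC, whose other strand holds CCAAT, was in 14 of 55 (25.5%, against 10.1%), so its matches are counted for CCAAT as well. The motif GGAAGT was in 29.1% against 29.7%, CCGGAAG in 18.2% against 16.5% and TTTCC in 67.3% against 65.6%. The motifs were picked while the promoters were being explored, and 5 longer forms were also tried, which makes 15 forms in all. After their shares had been seen, 3 of the longer forms were replaced by shorter parts of them. The parts are TCTCGCG, the motif GCATGCG and the part of the CTCF motif, AGGGGGC. The shares of the longer forms are not given. With this choice the shares are descriptions and were not tested. A match describes these letters only and shows no binding. Stretches with up to 25 bases on each side of the match, the match in capitals, are shown for HNRNPU, the highest gene, and for the 4 HNRNP genes with TCTCGCG, which were chosen for display after the shares had been seen.
HNRNPU, chr1:244864557-244864613, minus strand: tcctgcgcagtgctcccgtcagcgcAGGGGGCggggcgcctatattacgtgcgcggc
HNRNPD, chr4:82373995-82374051, minus strand: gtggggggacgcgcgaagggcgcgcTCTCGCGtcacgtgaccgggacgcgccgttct
HNRNPDL, chr4:82430402-82430458, minus strand: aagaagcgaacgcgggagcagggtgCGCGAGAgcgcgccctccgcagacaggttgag
HNRNPK, chr9:83980641-83980697, minus strand: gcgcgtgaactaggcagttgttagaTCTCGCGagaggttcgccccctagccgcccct
HNRNPH3, chr10:68331956-68332012, plus strand: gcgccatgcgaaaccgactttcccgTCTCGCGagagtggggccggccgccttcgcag
In HNRNPK and HNRNPH3 the match on the other strand overlaps the one shown. In HNRNPDL the capitals are the reverse complement of TCTCGCG, which is read on the other strand. The 7 genes with TCTCGCG had counts over most of the range, from 430 (HNRNPK), 309 (HNRNPDL), 217 (HNRNPD) and 195 (HNRNPH3) down to 119 (RBM26), 74 (RBM4B) and 13 (RBM42). Some starts are shared: RBM14 and RBM14-RBM4 start at the same base (0 apart), as do RBM12 and CPNE1, and RBMXL1 and KYAT3. RBM18 and MRRF, on opposite strands, start 42 bases apart and had 15 and 63 counts. HNRNPDL and ENOPH1, also opposite, start 128 bases apart and had 309 and 49.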

How the data were processed

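PAR-CLIP libraries of CTCF from U2OS cells were sequenced by the authors. Per the labels, the reads of both replicates were pooled into 1 file. The deposited values are whole-number counts per Ensembl gene, not scaled for depth or length. The submitters' processing notes name hg19, Bowtie and bedtools, without versions or roles. Treatment of duplicates, multiple matches and strand is not given in the sources used here. Intervals are used as deposited and need not span a whole gene.

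Identifiers were paired with symbols (16520 of 17201). Length is end minus start. Counts carry exact 95% Poisson intervals and shares exact 95% Clopper-Pearson intervals, from scipy 1.17.1 in Python 3.11.15 with pandas 2.3.3. Overlap means at least 1 shared base, strand ignored. The members, gene lists and motifs were chosen with earlier results of these data known, and no p-value was computed. Of 15 motif forms tried, the shares of 10 are given, and 3 of those 10 are shortened versions adopted after the longer ones had been seen. Genes named in full are the 15 highest by count, the 5 highest per kb, the 5 lowest and those under their length group's median. So are those overlapped by 50% or more of their interval. Fixed groups of genes, set by hand and not all close relatives, are named too. The pseudogenes and other genes were named after their values were seen. Alternatives covered the minimum count, overlap, members, scaling, background and number of length groups.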

Additional observations from a re-analysis of the deposited data

How the results depend on the processing

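Of 31 alternative values over 8 results, 27 stayed close to the main value. Close means within its interval, or within 1.5 times that value for counts of genes and for counts per kb. The 4 others were these. Without genes that overlap another listed gene, the median count of the HNRNP and RBM genes was 64 in place of 152.5, and the median per kb 5.84 in place of 9.12. Fewer genes enter there, 33 in place of 60. Per kb, the share in the top 10% was 56.7% in place of 36.7%. With overlap of at least 50% of the interval, the share of overlapping genes was 15% in place of 45%, by construction. The share above the median for length ranged from 76.3% (10 counts or more) to 85% (all listed genes as background) around 81.7%. Leaving out the read-through and divergent-transcript genes, an alternative added after seeing the data, left 57 genes and a median of 145. Values for each replicate were not analysed here, and neither could therefore be left out in turn. No paired analysis was possible because the table pools both replicates. Depth limits the lowest genes: RBM33-DT, RBM42, RBM45, RBM41 and HNRNPCL1, at 7 to 14 counts, have overlapping Poisson intervals.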
